A study of Rattus norvegicus with 2 samples.

Results

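The small heat shock proteins and crystallins are treated here as a set of 8 genes chosen by symbol: Cryab, Hspb1, Hspb6, Hspb8, Crym, Cryl1, Cryz and Cryba1, out of 25399 genes in the count matrices. Cells of the rat optic nerve were profiled by droplet single-cell RNA sequencing (10x Chromium 3′ chemistry) in 1 library from wild-type Sprague Dawley rats (WT) and 1 library from Nuc1 rats, which carry a spontaneous insertion in Cryba1. Both libraries are labelled as postnatal day 7, and no treatment is given for either. The series title and the study's methods describe a mixed primary culture of optic nerve glia, whereas the design text describes nerve that was harvested and digested to a suspension, and the methods start cultures from pups of 2 days of age. The number of animals behind each library is not given in the sources used here. Because each genotype has 1 library, no difference between WT and Nuc1 could be tested, and every interval below is a 95% interval for counting error only.

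Small heat shock proteins are chaperones without ATPase activity that hold unfolding proteins in a soluble state until ATP-driven chaperones refold or degrade them. One of them, αB-crystallin, shares the name crystallin with unrelated proteins, namely the β- and γ-crystallins, which are structural proteins of the lens, and the enzyme crystallins, which are metabolic enzymes that some species also accumulate in the lens. In the central nervous system astrocytes are known for αB-crystallin (Cryab) and HSP27 (Hspb1), both of which rise in stressed and reactive astrocytes and bind intermediate filaments such as GFAP. Cryba1, the gene mutated in Nuc1, encodes the βA3/A1-crystallins.

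Promoter windows from RefSeq (build GRCr8) are shown for Hspb1, Hspb6 and Hspb8, because these 3 small heat shock genes had their highest level in the same cell group; Cryab and Crym had no entry. The capitals mark each match to GAANNTTC, 2 inverted units of the heat shock element, and each window ends before the annotated start.
Hspb1: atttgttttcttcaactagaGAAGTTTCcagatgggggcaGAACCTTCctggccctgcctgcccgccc
Hspb6: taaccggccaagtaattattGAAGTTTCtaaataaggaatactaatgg
Hspb8: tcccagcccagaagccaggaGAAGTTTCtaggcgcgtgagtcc
The Hspb1 window lies at chr12:26432383-26432450 on the minus strand, the Hspb6 window at chr1:94934203-94934250 on the plus strand and the Hspb8 window at chr12:45837265-45837307 on the plus strand. The first matches begin 129, 149 and 23 bases before the start of Hspb1, Hspb6 and Hspb8. GAANNTTC reads the same on both strands and was found in 2875 of 33469 promoters of 300 bases (8.59%). Among the set of 8 genes, 3 of the 6 with a promoter entry held it, and Cryl1, Cryz and Cryba1 did not. The other order of the same units, TTCNNGAA, also reads the same on both strands and stood in 8.77% of promoters, among them those of Hspb6 and Cryba1. Of the 15 partner chaperones and heat shock factors with an entry, 8 held GAANNTTC, among them Hspa8, Hsph1 and Dnajb1. A match is a description of letters and was not tested for function.

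The WT library held 34517542 UMIs over 2107 barcodes and the Nuc1 library 35794685 UMIs over 1929 barcodes, with 2 barcodes in common. Filtering left 1963 cells in WT and 1782 in Nuc1, whose median depth was 14050 and 16577.5 UMIs. They fell into 10 clusters, numbered from 0, from which all genes of the small heat shock and crystallin lists had been left out. Cluster 3 was astrocyte-like, with Gfap, Fabp7, Aqp4 and Mlc1 among its 10 leading genes and UMIs of all 16 astrocyte markers in both libraries. It held 111 WT cells (5.66% of the library) and 377 Nuc1 cells (21.2%). Clusters 0, 1, 2, 4 and 5 were rich in collagen transcripts and held 1743 WT and 1265 Nuc1 cells, with cluster 5 made of dividing cells. Cluster 6 was motile-cilia-like, cluster 7 oligodendrocyte-lineage-like and cluster 9 macrophage-like, while cluster 8, led by Ttr and Gldn, stayed without a name. The macrophage-like cells of Nuc1 had a median of only 1716 UMIs against 7969 in WT, and clusters 6 and 7 had fewer than 20 cells in 1 library each, so no ratio is given for those 2.

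The libraries also differed in Y-linked transcripts. Eif2s3y, Kdm5d and Ddx3y together had 4 UMIs in WT cells and 1105 UMIs in Nuc1 cells (31.9 per 1000000 UMIs), found in 2 of 1963 WT cells and 413 of 1782 Nuc1 cells. Sex and genotype of the animals therefore cannot be told apart in any comparison of the libraries.

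Cryba1 had 0 UMIs in the cells kept of both libraries. A count of 0 allows up to 0.0886 UMIs per 1000000 UMIs in WT and 0.0865 in Nuc1, and in the astrocyte-like cells up to 1.03 and 0.310. The other 7 genes were all detected. Levels below are UMIs per 1000000 UMIs of the cell group (CPM), a scale on which the 3′ chemistry counts a transcript once whatever its length. Over all cells kept, Hspb1 was the most abundant of the set in both libraries, at 268 CPM in WT and 1339 CPM in Nuc1. Cryab followed in WT at 179 CPM and stood at 146 CPM in Nuc1. Crym stood at 113 and 138 CPM, Hspb8 at 105 and 136 CPM, Hspb6 at 33.5 and 74.2 CPM, Cryl1 at 21.3 and 33.6 CPM and Cryz at 18.3 and 18.5 CPM. These totals mix cell groups whose shares differ between the libraries, so the levels were next taken group by group.

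Hspb1, which encodes HSP27, had its highest level in astrocyte-like cells in both libraries. The level there was 2292 CPM in WT and 4494.5 CPM in Nuc1, and these cells held 73.6% of all Hspb1 UMIs in WT and 93.5% in Nuc1. Of the UMIs of all genes in the cells kept, they held 2916988 of 33864442 in WT and 9663776 of 34686732 in Nuc1. The next cluster of at least 20 cells was cluster 8 in WT (309 CPM) and the motile-cilia-like cluster in Nuc1 (605 CPM), and neither interval overlapped that of the astrocyte-like cells. In the collagen-rich clusters together Hspb1 stood at 72.6 CPM in WT and 83.8 CPM in Nuc1. The astrocyte-like level was thus 4.98 log2 units above the collagen-rich level in WT (4.91 to 5.05) and 5.75 in Nuc1 (5.68 to 5.81). Their mean over the libraries, 5.36 (5.31 to 5.41), was the largest such difference in the set but lay outside both intervals. Within the collagen-rich clusters Hspb1 was uneven, with cluster 4 (led by Inmt and Cyp26b1) at 195 CPM in WT and 209 CPM in Nuc1 and cluster 0 at 33.3 and 21.4 CPM.

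Cryab, which encodes αB-crystallin, was spread over more cell groups. In WT the unnamed cluster 8 (737 CPM) and the astrocyte-like cells (724 CPM) had overlapping intervals, and the dividing cluster 5 (250 CPM) and the collagen-rich cluster 1 (186 CPM, led by Actg2) followed. In Nuc1 the astrocyte-like cells were highest at 410 CPM, above cluster 8 at 241 CPM and cluster 1 at 109 CPM. Astrocyte-like cells held 34.9% of Cryab UMIs in WT and 78.1% in Nuc1, while the collagen-rich clusters held 58.3% and 18.4%. These shares also follow the make-up of the libraries, since astrocyte-like cells were 5.66% of WT and 21.2% of Nuc1 cells. Their Cryab level was lower in Nuc1. The astrocyte-like level was 2.58 log2 units above the collagen-rich level in WT and 3.31 log2 units in Nuc1.

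Hspb6, which encodes HSP20, and Hspb8, which acts with Bag3 in the removal of misfolded proteins, were lower but also peaked in astrocyte-like cells. Hspb6 stood at 142 CPM in WT and 179 CPM in Nuc1, which in WT overlapped cluster 8 (100 CPM). The motile-cilia-like cells were close, at 136 CPM in WT (10 cells) and 128 CPM in Nuc1, where the intervals did not overlap. Hspb8 stood at 239 CPM in WT and 278 CPM in Nuc1, above cluster 2 (119 and 122 CPM), the next in order in both libraries. The mean astrocyte-like excess over the collagen-rich clusters was 2.78 log2 units for Hspb6 and 1.55 log2 units for Hspb8 (1.33 in WT and 1.76 in Nuc1). Hspb8 was also present outside these cells, at 88.1 to 119 CPM in clusters 0, 1, 2 and 5 of WT, and the oligodendrocyte-lineage-like cells of WT were lowest at 5.09 CPM.

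The other small heat shock genes were scarce apart from Hspb2, the neighbour of Cryab. Of the 10 genes in the list of small heat shock proteins, all were in the matrices. Hspb7 had 35 UMIs in WT cells and 8 in Nuc1 cells, and Odf1 had 10 and 9 UMIs. Cryaa, the αA-crystallin gene of the lens, had 1 and 2 UMIs, Hspb3 had 2 and 0, and Hspb9 had 0 and 3.

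**Figure D1:**
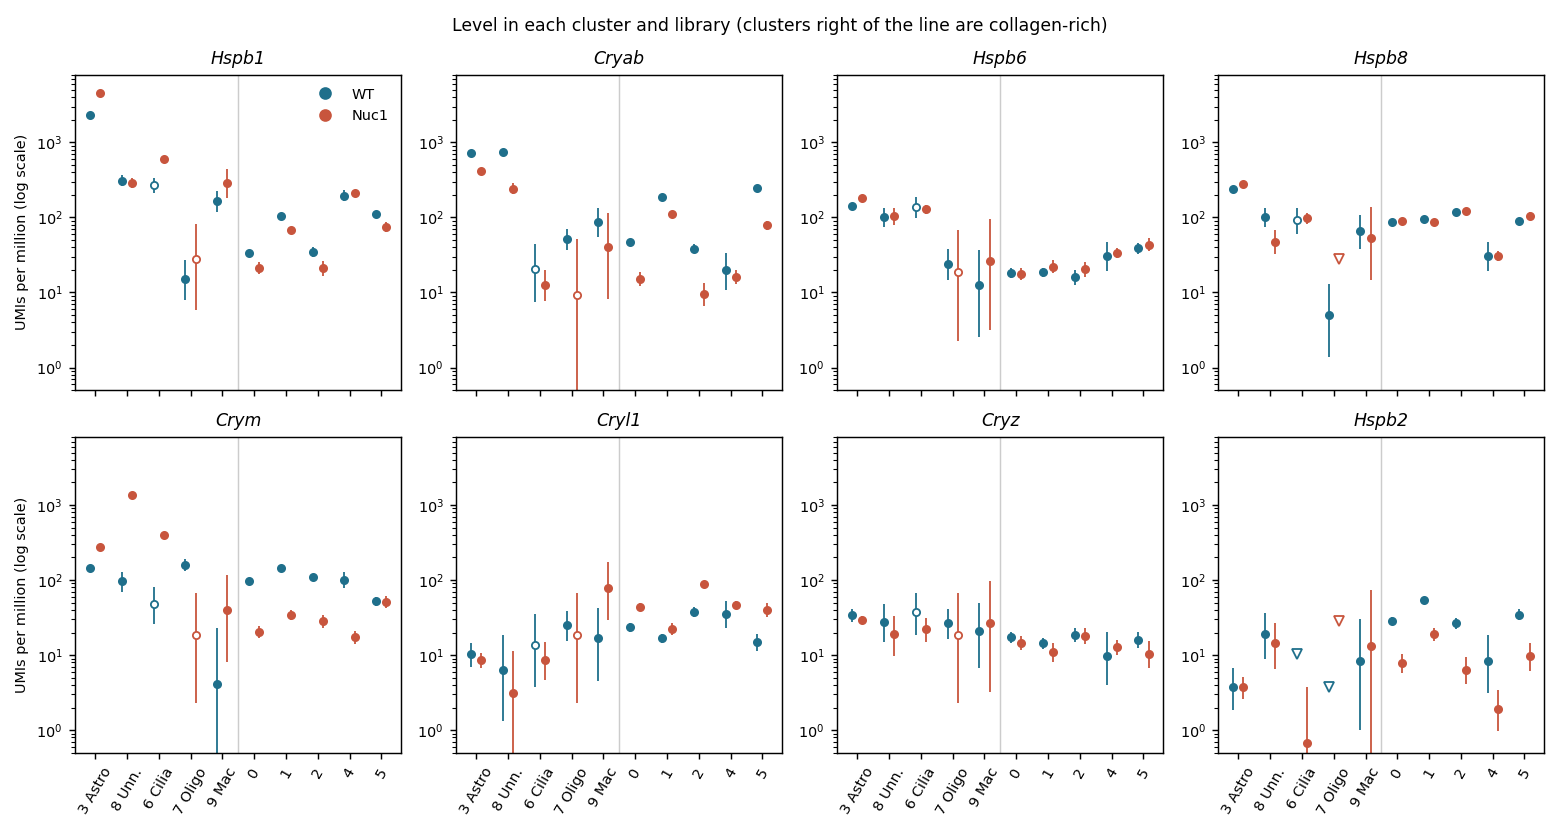
Level of the 7 detected genes and of Hspb2 in each cluster (x axis) and library (colour), in CPM on a log scale, with 95% Poisson intervals. Open circles are groups of fewer than 20 cells, open triangles mark the limit that a count of 0 allows, and intervals that reach below the axis stop at its foot. Hspb1 stood at 2292 CPM (WT) and 4494.5 CPM (Nuc1) in astrocyte-like cells, above the other clusters of its panel.

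The enzyme crystallins had different patterns. Crym, which encodes μ-crystallin, a ketimine reductase that binds thyroid hormone, stood at 144 CPM in WT astrocyte-like cells, with overlapping intervals in the oligodendrocyte-lineage-like cells (158 CPM) and in cluster 1 (144 CPM). Its astrocyte-like level was 0.39 log2 units above the collagen-rich level in WT and 3.36 in Nuc1, so their mean of 1.88 describes neither library. In Nuc1 its order was another one, with cluster 8 at 1354.5 CPM, the motile-cilia-like cells at 400.5 CPM, the astrocyte-like cells at 279 CPM and the collagen-rich clusters between 17.2 and 51.0 CPM. Cryl1, which encodes λ-crystallin, an L-gulonate dehydrogenase, was the only detected gene of the set with a lower level in astrocyte-like cells (10.3 CPM in WT and 8.59 CPM in Nuc1) than in the collagen-rich clusters (22.7 and 46.7 CPM). Cryl1 was highest in cluster 2, led by Cldn11, at 37.7 CPM in WT and 87.7 CPM in Nuc1, with intervals that overlapped the next in order, cluster 4 in WT (35.3 CPM) and the macrophage-like cells in Nuc1 (79.5 CPM from 6 UMIs). Cryz, which encodes ζ-crystallin, a quinone oxidoreductase, had the smallest mean difference between astrocyte-like and collagen-rich cells among the 7 detected genes, at 33.9 and 29.6 CPM in astrocyte-like cells and 16.1 and 13.6 CPM in the collagen-rich clusters. The intervals of all neighbours in its order of clusters overlapped in both libraries. Its relative Cryzl1 stood at 45.3 CPM in WT astrocyte-like cells, with a log2 ratio of Nuc1 over WT of -0.41.

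The lens β- and γ-crystallins were close to absent. Of the 18 genes in this list, 15 were in the matrices, and none reached 50 UMIs in the cells of a library. Crybg3 had 38 UMIs in WT and 46 in Nuc1, Cryga had 45 and 43, and Crybb1 had 29 and 22. The few UMIs of Crybb1 lay mostly in astrocyte-like cells, which held 25 of the 29 in WT and 19 of the 22 in Nuc1. The astrocyte-like cells also held 23 of the 45 Cryga UMIs in WT and 34 of the 43 in Nuc1. Their level there was lower in Nuc1 for both genes, at 8.57 against 1.97 CPM for Crybb1 and 7.89 against 3.52 CPM for Cryga. Of the lens fibre cell markers other than crystallins, Bfsp2, a lens intermediate filament protein, stood at 14.7 CPM in WT and 7.24 CPM in Nuc1 in the same cells, and Lim2, Gja3 and Lgsn were at 0 in both. In the collagen-rich clusters together Bfsp2 stood at 2.126 CPM in WT and 5.285 CPM in Nuc1. Clusters 1 and 2 of Nuc1, at 7.64 and 8.72 CPM, were not below the astrocyte-like cells. Of the markers of retina and pigment cells, Rpe65, the isomerase of the visual cycle, stood at 103.5 CPM in WT and 61.3 CPM in Nuc1 astrocyte-like cells, and Crx was at 0 in both. The motile-cilia-like cells also had Rpe65, at 109 CPM in WT (10 cells) and 39.9 CPM in Nuc1.

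UMIs of free RNA, or of other cells' RNA in the same droplet, can reach cells that do not transcribe a gene, so Hspb1 was set against Gfap, the intermediate filament of astrocytes. Astrocyte-like cells had 34.1 Hspb1 UMIs per 100 Gfap UMIs in WT (33.2 to 35.1) and 49.1 in Nuc1 (48.5 to 49.7). Macrophage-like cells had 24.8 (17.1 to 35.3) and 29.7 (17.6 to 48.4), and 28.0% and 17.4% of them had an Hspb1 UMI, at median depths of 7969 and 1716 UMIs, so that no more Hspb1 was seen per Gfap UMI than in astrocyte-like cells. Gfap was not spread evenly over the other cells, at 673 CPM in WT and 981 CPM in Nuc1 macrophage-like cells and 6.58 and 29.6 CPM in the collagen-rich clusters, and its source in them was not tested. The collagen-rich clusters had 1103 Hspb1 UMIs per 100 Gfap UMIs in WT (951 to 1286) and 283 in Nuc1 (259 to 309). The Nuc1 value was carried by cluster 4, which held 1188 of the 1902 Hspb1 UMIs and stood at 974, and cluster 1 stood at 488 (374 to 645). Clusters 0 and 5 of Nuc1 stood at 115 and 116. The part of RNA of astrocyte-like cells in the Hspb1 of the collagen-rich clusters was not measured or tested. Cluster 2 of Nuc1 stood at 36.7 (28.0 to 47.6), below the astrocyte-like ratio, so its Hspb1 level of 21.1 CPM cannot be told apart from RNA of astrocyte-like cells. The motile-cilia-like cells of Nuc1 had 31.7 Hspb1 UMIs per 100 Gfap UMIs (29.4 to 34.1), also below the astrocyte-like ratio, although 12 of these 76 cells had at least 1000 CPM of Hspb1. After thinning to 10000 UMIs, which left out shallower cells and kept 1491 WT and 1091 Nuc1 collagen-rich cells, 35.1% and 34.7% of these cells had an Hspb1 UMI, whereas among astrocyte-like cells the share was 97.3% in WT (110 cells) and 98.6% in Nuc1 (354 cells). Without thinning the shares were 43.3% and 44.2% against 99.1% and 98.7%.

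Comparing Nuc1 with WT in astrocyte-like cells asks how the small heat shock and crystallin genes stood in the cells that Gfap marks. Hspb1 and Crym were higher in Nuc1 and Cryab was lower, while Hspb6 and Hspb8 were slightly higher. Hspb1 had a log2 ratio (Nuc1 over WT) of 0.97 (0.93 to 1.01). It was 1.76 with a mitochondrial limit of 10%, a setting in which the cells were also clustered again (28 WT and 180 Nuc1 astrocyte-like cells). For Cryab it was -0.82 (-0.90 to -0.74). For Crym it was 0.95 (0.80 to 1.10), although the median cell was lower in Nuc1 (49.5 CPM) than in WT (61.2 CPM) and 19 of 377 Nuc1 cells held at least as many Crym UMIs as all others there. Hspb6 had a log2 ratio of 0.33 (0.17 to 0.49) and Hspb8 of 0.22 (0.09 to 0.34). The intervals of Cryl1 (-0.26) and Cryz (-0.20) included 0. None of the 7 detected genes passed 2-fold in these cells, where 11.0% of 10799 genes with at least 20 UMIs did, although Hspb1 and Crym stood just inside that limit, and Hspb1, Crym and Cryab each passed it under some other settings. The median log2 ratio of the 7 genes was 0.22, beside -0.12 over those 10799 genes. Other markers in the astrocyte-like cells moved as well. Gfap itself stood at 6723 CPM in WT and 9156 CPM in Nuc1. The 16 astrocyte markers, of which Mt3 was the most abundant in WT (6932.5 CPM) and Gfap in Nuc1, summed to 40926.5 CPM in WT and 48368.5 CPM in Nuc1. All 11 fibroblast markers had UMIs, with sums of 900 and 682 CPM and Col1a1 and Col3a1 the most abundant. Motile cilia markers (12 of 13 with UMIs in each library, Rsph4a at 0, Dynlrb2 the most abundant) summed to 205 CPM in WT and 484 CPM in Nuc1, and the 8 markers of dividing cells to 370 and 114 CPM. Macrophage markers summed to 11.0 and 7.45 CPM, and Cx3cr1, Csf1r and Ptprc were at 0. The part of these other cell types in the ratios was not tested.

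Mitochondrial content differed between the libraries in this group, with a median of 13.0% of UMIs in WT and 10.9% in Nuc1. Split at 10%, the 16 WT cells with less had 2113 CPM of Hspb1 and the 95 WT cells with more had 2318 CPM. In Nuc1 the 158 cells with less had 5550 CPM and the 219 cells with more had 3512.5 CPM, so Hspb1 was higher in Nuc1 on both sides of the split. Cryab was lower in Nuc1 on both sides. It stood at 917 CPM in WT against 579 CPM in Nuc1 with less mitochondrial RNA, and at 697 against 253 CPM with more. The 16 WT cells with less are fewer than the minimum set for a ratio, so only levels are given. The part of mitochondrial content in the Hspb1 and Cryab differences was not tested.

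**Figure D2:**
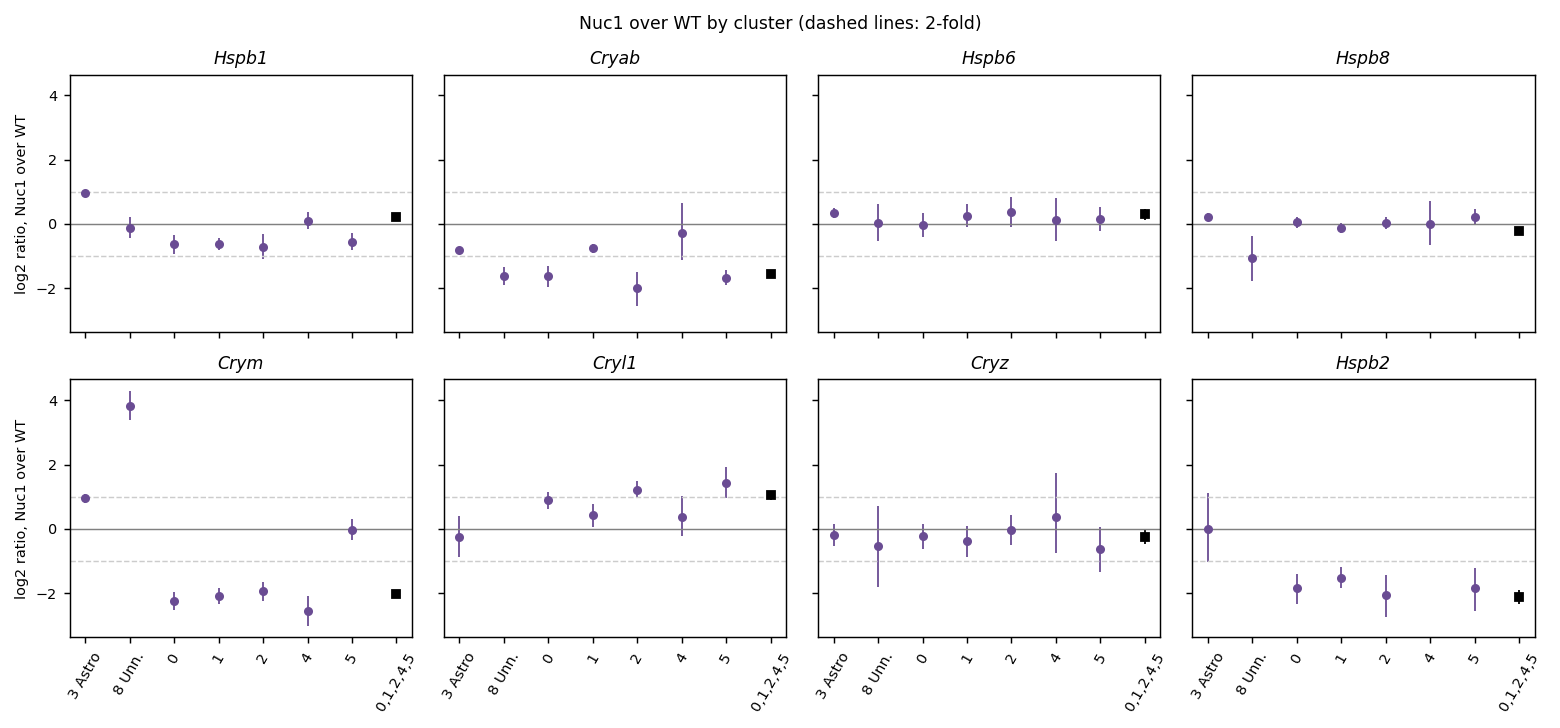
Log2 ratio of Nuc1 over WT (y axis) by cluster (x axis) for the 7 detected genes and Hspb2, with exact 95% intervals for counting error; the square is the value over the 5 collagen-rich clusters together, dashed lines mark 2-fold, and genes with fewer than 20 UMIs in a cluster are left out. Hspb1 was higher in Nuc1 in astrocyte-like cells (0.97) and lower in clusters 0, 1, 2 and 5, and Crym was highest in cluster 8 (3.82).

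Single astrocyte-like cells showed whether a few cells made these differences. For Hspb1 the median cell had 1874 CPM in WT and 2760 CPM in Nuc1, and the highest had 9622 and 23544 CPM. At least 1000 CPM was reached by 77 of 111 WT cells (69.4%) and 305 of 377 Nuc1 cells (80.9%). For Cryab the median cell had 540 CPM in WT and 151 CPM in Nuc1, so the medians lay further apart than the sums. Cryab UMIs were seen in 107 of 111 WT cells and in 314 of 377 Nuc1 cells, yet the highest Nuc1 cell had 11210 CPM against 3623 CPM in WT. Without that cell and the highest WT cell the log2 ratio was -0.95. Median cells of Hspb6 (132 and 142 CPM) and Hspb8 (198 and 230 CPM) lay close together. Across thinned cells Hspb1 and Cryab had a Spearman correlation of 0.03 in 110 WT cells and 0.31 in 354 Nuc1 cells, which share library, depth and free RNA and are given as a description.

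**Figure D3:**
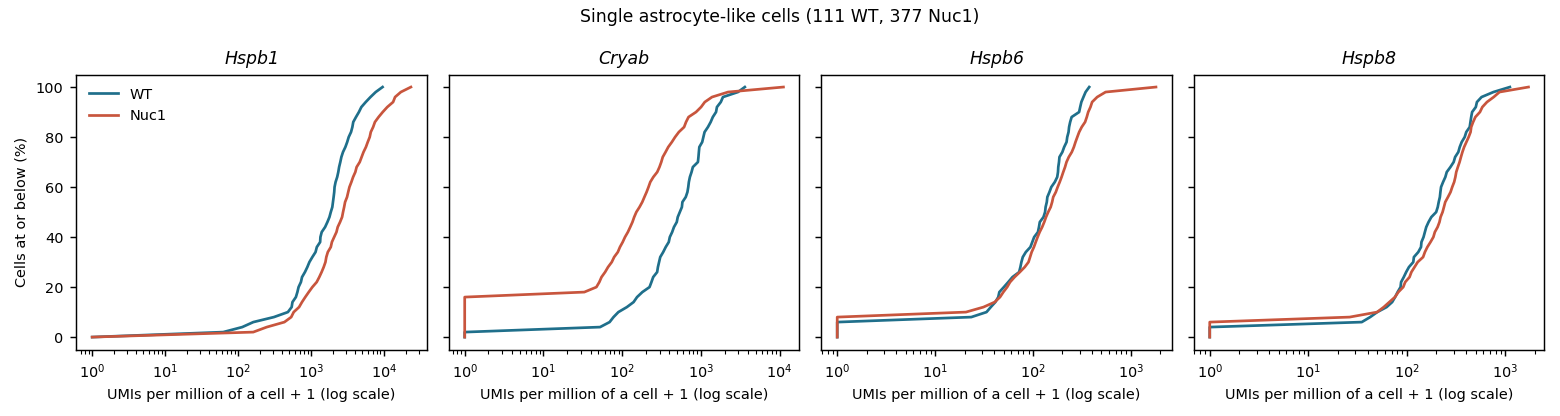
Share of astrocyte-like cells (y axis, percent) at or below each level (x axis, CPM of the cell plus 1, log scale) for Hspb1, Cryab, Hspb6 and Hspb8, with one line per library. The Nuc1 line lies to the right of WT for Hspb1 (median 2760 against 1874 CPM) and to the left for Cryab (151 against 540 CPM) over most of the range, although the highest cell was in Nuc1 (11210 CPM).

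In the collagen-rich clusters 3 of the 7 detected genes passed 2-fold, beside 11.8% of 12384 genes. Cryab was lower in Nuc1, at 121 CPM in WT and 41.2 CPM in Nuc1, a log2 ratio of -1.56 (-1.66 to -1.45). Crym was lower too, at 110 and 27.1 CPM, a log2 ratio of -2.02 (-2.15 to -1.90). Cryl1 was higher, at 22.7 and 46.7 CPM, a log2 ratio of 1.04 (0.90 to 1.18). With the 5 clusters weighted equally Cryl1 was at 0.87, short of 2-fold, and on its own it passed 2-fold in clusters 2 and 5. The same directions held in each of the 5 clusters for these 3 genes, though the interval included 0 for Cryab and Cryl1 in cluster 4 and for Crym in cluster 5. By cluster, the count of detected genes past 2-fold was 2 of 7 in cluster 0 (9.72% of all genes there), 1 in cluster 1 (8.97%), 3 in cluster 2 (8.88%), 1 in cluster 4 (11.5%) and 2 in cluster 5 (7.44%). Cell type markers differed in the collagen-rich clusters as well. All 11 fibroblast markers had UMIs, with sums of 12250 CPM in WT and 8221 CPM in Nuc1 and Col1a1 and Col3a1 the most abundant. Contractile and mural markers (7 of 9 with UMIs in WT and 8 in Nuc1, Kcnj8 at 0 in both) summed to 2485 and 926 CPM, mostly Tagln (1733 and 722 CPM). Neuron markers (7 and 8 of 9) summed to 614 and 268 CPM, nearly all Stmn2, and the 8 markers of dividing cells to 601 and 425.5 CPM. The part of these shifts in the ratios was not tested.

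Hspb1 depended on how the collagen-rich clusters were combined. Summed over them, its log2 ratio was 0.21 (0.12 to 0.30), whereas it was -0.64 in cluster 0, -0.62 in cluster 1, -0.71 in cluster 2 and -0.55 in cluster 5, with intervals that excluded 0, and 0.10 in cluster 4 with an interval that included 0. Cluster 4 had the highest Hspb1 of these clusters and held 54 WT cells and 367 Nuc1 cells. With the 5 clusters weighted equally the mean log2 ratio was -0.48. Hspb8 was likewise lower when summed (-0.22) but not with equal weights (0.03), and Hspb6 was at 0.30 and 0.17.

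Hspb2, a small heat shock gene best known from muscle, overlaps Cryab in the RefSeq gene table. How reads near their shared region were assigned is not given in the sources used here. The 2 genes had different patterns. In WT collagen-rich clusters Hspb2 had 31.0 UMIs per 100 Cryab UMIs (29.0 to 33.2), and in Nuc1 it had 21.1 (18.0 to 24.6). By cluster the WT value ran from 13.9 in cluster 5 to 68.9 in cluster 2. The intervals of the libraries overlapped in clusters 0, 2, 4 and 5. Cluster 1 had 29.3 in WT (26.6 to 32.2) and 17.4 in Nuc1 (13.8 to 21.7). In astrocyte-like cells it had only 0.521 in WT (0.260 to 0.934) and 0.909 in Nuc1 (0.636 to 1.26). The level of Hspb2 was highest in cluster 1, at 54.4 CPM in WT and 19.0 CPM in Nuc1, where the interval overlapped that of cluster 8 (14.3 CPM). In the collagen-rich clusters together it was 37.6 CPM in WT and 8.68 CPM in Nuc1, a log2 ratio of -2.11. The level was lower in Nuc1 in each of the 5 clusters, though cluster 4, with 6 and 11 UMIs, was below the minimum for a ratio. In astrocyte-like cells it did not differ by a measurable amount, at 3.77 and 3.73 CPM from 11 and 36 UMIs.

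**Figure D4:**
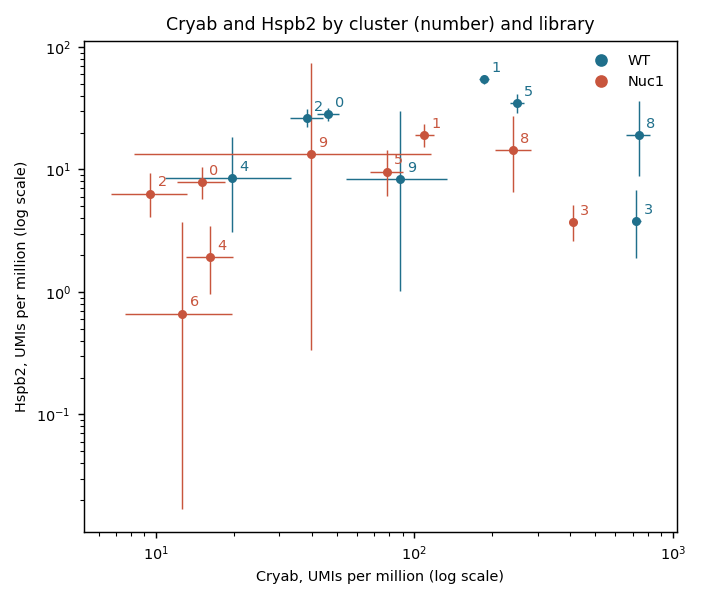
Hspb2 (y axis) against Cryab (x axis), both in CPM on log scales, in each cluster of at least 20 cells (number) and library (colour), with 95% Poisson intervals; a cluster with no Hspb2 UMI is left out. Astrocyte-like cells (3) combined high Cryab (724 CPM in WT and 410 CPM in Nuc1) with low Hspb2 (3.77 and 3.73 CPM), unlike cluster 1.

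Crym showed opposite directions in different cell groups. It was higher in Nuc1 in astrocyte-like cells and in cluster 8, where its log2 ratio was 3.82 (3.39 to 4.29), and lower in clusters 0, 1, 2 and 4, with log2 ratios between -2.56 and -1.95. In cluster 8, 3 of the 6 genes with at least 20 UMIs passed 2-fold, beside 12.6% of 5962 genes there, the others being Cryab (-1.61) and Hspb8 (-1.07). The Crym value in cluster 8 rests on few cells. The 2 highest Nuc1 cells held at least as many Crym UMIs as the other 29, the highest cell had 15526 CPM, and the median cell had 53.0 CPM against 14.7 CPM over 22 WT cells. Without the 5 highest cells of each library the log2 ratio was 1.91 (0.86 to 3.13). Motile cilia markers in cluster 8 (8 of 13 with UMIs in WT and 12 in Nuc1, Rsph4a at 0 in both, Dynlrb2 the most abundant) summed to 217 and 608 CPM. Contractile and mural markers there (5 of 9 in each, mostly Tagln, with Rgs5, Kcnj8, Abcc9 and Notch3 at 0) summed to 4720 and 2029 CPM, and their part in the cluster 8 ratios was not tested.

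Cells with at least 1000 CPM of Crym numbered 28 in WT and 42 in Nuc1. In WT 26 of the 28 lay in the collagen-rich clusters, 16 of them in cluster 1, and 2 in the astrocyte-like cluster. In Nuc1 28 of the 42 lay in the astrocyte-like cluster, 6 in the motile-cilia-like cluster, 5 in cluster 8, 2 in the collagen-rich clusters and 1 in the macrophage-like cluster. As shares of cells, they made up 1.49% of collagen-rich cells and 1.43% of all cells kept in WT. The same shares in Nuc1 were 0.158% and 2.36%. Among astrocyte-like cells they made up 1.80% in WT (0.219 to 6.36) and 7.43% in Nuc1 (4.99 to 10.6), with overlapping intervals. The thinned share of cells with a Crym UMI was 48.2% in WT and 50.8% in Nuc1 astrocyte-like cells (74.8% and 61.5% without thinning), and 48.2% and 16.6% in collagen-rich cells (57.6% and 25.9% without thinning).

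**Figure D5:**
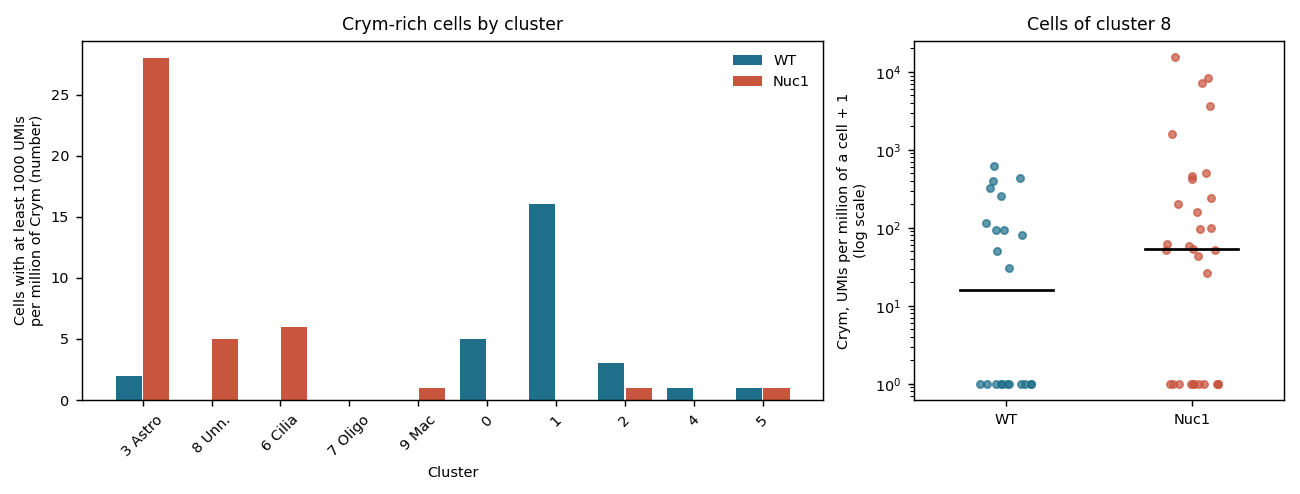
Left, number of cells (y axis) with at least 1000 CPM of Crym in each cluster and library; right, Crym in each cell of cluster 8 (CPM of the cell plus 1, log scale), with lines at the medians. Such cells lay mostly in collagen-rich clusters in WT (26 of 28) and in the astrocyte-like cluster in Nuc1 (28 of 42). They made up 1.49% of collagen-rich cells in WT, beside 1.43% of all WT cells kept. In Nuc1 they made up 7.43% of astrocyte-like cells, beside 2.36% of all cells kept.

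The partner chaperones and heat shock factors gave a reference for the set. Of 19 listed genes, 17 had at least 20 UMIs in astrocyte-like cells, and none passed 2-fold there, beside 11.0% of all genes, with log2 ratios from -0.48 to 0.40 and a median of -0.27. The 5 most abundant were Hsp90ab1 (1758 CPM in WT and 1980 CPM in Nuc1), Hspa8 (784 and 741 CPM), Hsp90aa1 (578 and 640 CPM), the endoplasmic reticulum chaperone Hspa5 (397 and 286 CPM) and the mitochondrial chaperonin Hspd1 (279 and 232 CPM). Hspb1 was above these 5 in both libraries. Bag3, the partner of Hspb8, had a log2 ratio of -0.30 (-0.52 to -0.08), and the heat shock factor Hsf1 of -0.48 with an interval that included 0. The stress-inducible Hspa1b stood at 19.2 and 19.9 CPM. In the collagen-rich clusters none of 18 passed 2-fold, beside 11.8% of all genes.

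The dissociation list holds immediate early genes, which cells switch on during tissue digestion, and Hspa1b, and its genes differed more. Of 9 genes of this list in the matrices, 6 were lower in Nuc1 astrocyte-like cells by more than 2-fold, beside 7.02% of all 10799 genes, with a median log2 ratio of -1.27. Fos stood at 1013 CPM in WT and 419 CPM in Nuc1, Egr1 at 670 and 236 CPM, Junb at 531 and 392 CPM, Dusp1 at 465 and 168 CPM, and Jun at 460 and 268 CPM. In the collagen-rich clusters 3 of the 9 were lower by more than 2-fold, beside 4.93% of all 12384 genes, with a median of -0.87. The other genes of the list were lower in Nuc1 in both cell groups, while Hspa1b had a log2 ratio of 0.05 in astrocyte-like cells, with an interval that included 0, and of 0.82 (0.65 to 0.98) in the collagen-rich clusters. The part of these genes in the Cryab and Hspb1 values was not tested.

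Genes with a pattern like each member were sought over 16 points, each a cluster in a library, among 9677 genes. Hspb1 was most like Tmem47 (Pearson r = 0.96), Dbi (0.95), Cyp7b1, Mtmr10 and Gprc5b. Hspb6 was most like Msi1 (0.95), Zfr, Cfap70, Sfxn5 and Pgm1, and Cryab most like Ebpl (0.94), Tspan2, Msn, Itga6 and Psat1. Hspb8 was most like Naprt (0.88), Mrpl48, Csdc2, Kcnk10 and Slc6a8. Crym was most like Arhgef19 (0.88), Lmo1, Ccdc74a, Stbd1 and Sostdc1, Cryl1 like Eya2 (0.95), Gpr4, Nkiras1, Bcat2 and Nme4, and Cryz like Pigp (0.94), Apc2, Nipsnap2, Gkap1 and Snph. Among the members the closest pair was Hspb1 and Hspb6 (r = 0.84), and Cryab and Cryl1 were the most opposed (r = -0.86). Points of 1 library share their depth and free RNA, so these values are descriptions.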

How the data were processed

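Libraries were made by the authors with the 10x Chromium 3′ v3.1 kit from 5092 WT and 5125 Nuc1 input cells (viability 90% and 95%, target 3000 cells). The deposited files hold raw counts of UMIs per gene and barcode, made by the authors with Cell Ranger 3.1.0 and STAR 2.7 per the submitters' processing notes; the authors filtered cells by mitochondrial share, genes and UMIs in their own analysis, and neither those limits nor the genome build is given in the sources used here. How reads in a region shared by overlapping genes, such as Cryab and Hspb2, were assigned is likewise not given in them.

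From the counts, barcodes were kept from 500 detected genes upwards and up to 20% of UMIs from 13 mitochondrial genes, and Scrublet (scanpy 1.11.5, expected rate 2%) removed 5 WT and 11 Nuc1 doublets. Cells were integrated and clustered in Seurat 5.3.0 (R 4.3.3; 2000 variable genes, 30 components, resolution 0.5, seed 1) after 29 family genes were left out, so none of the 8 genes or their listed relatives defines a cluster; other genes described here, such as Gfap, do. A cluster was named when at least 3 of a type's markers were among its 10 leading genes, and called collagen-rich at 5000 CPM or more of Col1a1, Col3a1, Dcn and Lum, a limit chosen after the values were seen. UMIs were summed per cluster and library. Levels have exact Poisson intervals, ratios exact conditional intervals and shares exact Clopper-Pearson intervals (95%), and a count of 0 allows 3 counts. Ratios need 20 cells per library and 20 UMIs. The ratio script was tested on simulated data. Genes were named by rule as the 8 members, the genes of the fixed lists, the 5 most abundant of each list of partner and dissociation genes in astrocyte-like cells, and the 5 genes most like each member by Pearson r of log2(CPM + 10). Leading genes of clusters, cell type markers and Y-linked genes are named as descriptions, and Aldh1a1 and Krt8 were chosen after their values were seen. Members and lists were chosen with earlier results of these data known. Alternatives used other filters, clusterings, weights and scalings, including edgeR 4.0.16 TMM factors. Some marker genes of the lens and retina lists are not reported here.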

Additional observations from a re-analysis of the deposited data

Results flagged for a closer look

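Hspb1, Hspb8 and Crym differed in direction between clusters, each with intervals away from 0 on both sides; the differences between clusters were not tested, since each genotype has 1 library. Hspb1 had a log2 ratio of Nuc1 over WT of 0.97 in astrocyte-like cells and of -0.71 in cluster 2, where the Nuc1 level cannot be told apart from RNA of astrocyte-like cells. Crym had 3.82 in cluster 8, a value carried by few cells, and -2.56 in cluster 4. Hspb8 had 0.22 in astrocyte-like cells and -1.07 in cluster 8, where it rested on 47 WT and 30 Nuc1 UMIs.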

How the results depend on the processing

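No paired analysis was possible because WT and Nuc1 are single libraries, and no replicate could be left out. Over 15 alternatives the astrocyte-like ratios of Hspb1, Cryab, Hspb6, Hspb8 and Crym kept their direction, and so did the difference between astrocyte-like and collagen-rich cells of the 7 detected genes over 12. The ratios of Cryl1 (-0.37 to 0.36) and Cryz (-0.26 to 0.09) kept it in 13 of 15. The number of detected genes past 2-fold in astrocyte-like cells, 0 as reported, lay between 0 and 3, and those that passed were Hspb1, Crym and Cryab. The cause of the shifts was not tested. Few WT cells stand behind some values, namely 111 for the astrocyte-like ones and 22 for cluster 8.

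The log2 ratio of Nuc1 over WT in astrocyte-like cells moved by more than its interval as follows. With a mitochondrial limit of 10%, where 28 cells of WT and 180 of Nuc1 were astrocyte-like, it was 1.76 for Hspb1, 1.51 for Crym, 0.74 for Hspb6 and 0.77 for Hspb8. At resolution 0.2 it was 0.91 for Hspb1 and 1.12 for Crym, and with a marker rule in place of clusters -1.01 for Cryab and 1.43 for Crym. Without fibroblast-marker-rich cells it was 0.92 for Hspb1 and -0.72 for Cryab, after thinning to 10000 UMIs 0.89 and -1.0, and as a mean over cells 0.90 and -0.98. TMM scaling (factors 1.052 and 0.95) gave 1.12 for Hspb1, -0.67 for Cryab and 0.36 for Hspb8. Centring on the median gene, at -0.101 over 7860 genes, gave 1.07 for Hspb1 and -0.72 for Cryab. Chosen after seeing the data, leaving out cells with Y-linked UMIs gave -0.65 for Cryab and 1.12 for Crym, and leaving out the top 5% of cells gave 0.87 for Hspb1, -1.24 for Cryab and 0.69 for Crym. With a minimum of 100 UMIs in place of 20, 6.12% of genes passed 2-fold.

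The log2 difference between astrocyte-like and collagen-rich cells moved likewise. For Hspb1 it was 4.93 with the mitochondrial limit of 10%, 5.21 at resolution 0.2, 5.03 with the marker rule, 5.42 without fibroblast-marker-rich cells and also without cells with Y-linked UMIs, 5.27 after thinning and 5.28 as a mean over cells. For Cryab the same settings gave 3.02, 2.78, 2.7, 3.04 (both), 3.14 and 3.29. The mitochondrial limit gave 1.56 for Crym, 0.88 for Cryz, 2.64 for Hspb6 and 1.29 for Hspb8. The marker rule gave 2.63 for Hspb6, 1.32 for Hspb8 and -1.46 for Cryl1, and resolution 0.2 gave 1.44 for Hspb8. Crym, whose mean of 1.88 joins 0.39 in WT and 3.36 in Nuc1, was at 2.0 without fibroblast-marker-rich cells and 2.07 without cells with Y-linked UMIs.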

Other observations

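Cells with at least 1000 CPM of Crym in the Nuc1 library were set beside the other cells of their cluster after the values were seen, so what follows is a description. Aldh1a1, which encodes a retinaldehyde dehydrogenase, was higher in these cells in 3 clusters, at 1021 against 308 CPM in the astrocyte-like cluster (28 and 349 cells), 205 against 38.1 CPM in the motile-cilia-like cluster (6 and 70 cells) and 663 against 37.1 CPM in cluster 8 (5 and 26 cells). Hspb1 was lower in the Crym-rich astrocyte-like cells, at 1631 against 4678 CPM, as were Gfap, at 4323 against 9466 CPM, and Cryab, at 80.8 against 431 CPM. In cluster 8 Gfap was instead higher in the Crym-rich cells, at 587 against 357 CPM, as was the astrocyte marker Mlc1, at 1420 against 256 CPM, and in the motile-cilia-like cluster Hspb1 stood at 600.0 against 606 CPM. In the motile-cilia-like cluster the Crym-rich cells had 2179 CPM of Krt8 against 238 CPM in the others, whereas Krt8 was lower in them in the astrocyte-like cluster (12.03 against 59.2 CPM) and had no UMI in those of cluster 8 (93.7 CPM in the others). Their median depth was 18740 against 24535 UMIs in the astrocyte-like cluster, 31562 against 15886 UMIs in the motile-cilia-like cluster and 22961 against 18104 UMIs in cluster 8.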
